A study of Mus musculus with 16 samples.

Results

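The 46 genes described here act in the cell division cycle and in the copying of DNA. They were chosen by symbol and looked up in the deposited count table of lower urinary tract mesenchyme. All 46 were among its 55228 gene symbols, and all 46 passed the filter on low counts that left 18254 genes to test. RNA was sequenced as poly(A)-selected, strand-specific libraries from 4 groups of wild-type, untreated CD-1 mouse embryos at embryonic day 16.5. The groups were male pelvic urethra, female pelvic urethra, male bladder and female bladder, with 4 libraries each. CD-1 is an outbred stock, and each of 4 litters gave 1 library per group from embryos of 1 sex pooled within the litter. Mesenchyme, the embryonic connective tissue that forms muscle and stroma, was pulled off the epithelium with forceps after trypsin. The labels used here give no number of embryos per pool, and the 8 libraries of a tissue come from 4 litters.

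A cell enters the cycle when D-type cyclins switch on the kinases Cdk4 and Cdk6, which inactivate the retinoblastoma protein and free E2F transcription factors. E2F turns on cyclin E, the enzymes that supply nucleotides and the MCM helicase that licenses replication origins. Later in the cycle the B-Myb and FoxM1 complexes turn on cyclins A and B, the mitotic kinases and the spindle and kinetochore genes, and the anaphase-promoting complex ends mitosis by marking cyclins for breakdown. Inhibitors such as p21 (Cdkn1a) and p18 (Cdkn2c) hold the kinases back. In the fetal lower urinary tract the mesenchyme both proliferates and begins to form muscle at this stage.

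Libraries held 24447435 to 29698009 counts in the urethra and 18577097 to 22293812 counts in the bladder, so depth went with tissue. The tissue label went with the muscle genes. The summed smooth muscle markers stood at 1637 to 2157 CPM in the urethra, against 14410 to 18570 CPM in the bladder, and all 10 were called lower. The skeletal muscle markers stood at 71.5 to 130.2 CPM in the urethra, against 2.76 to 5.05 CPM in the bladder, and 12 of 12 tested were called higher. All 11 neuron markers (sums of 1695 to 2747 against 71.5 to 484 CPM), all 7 glia markers (193.6 to 246 against 62.3 to 118 CPM) and all 8 endothelium markers (475 to 623 against 250.2 to 426 CPM) were called higher in the urethra. For mesothelium 6 of 7 were lower (208.8 to 489 against 825 to 1523 CPM), for red blood cells 5 of 8 tested (1255 to 1676 against 1552 to 2640 CPM), and for general mesenchyme markers 6 of 10 with 3 higher (11160 to 13500 against 17280 to 22360 CPM). Immune cell markers had 4 higher and 2 lower of 9 (114.7 to 143.5 against 97.8 to 138.3 CPM), and cartilage and bone markers 4 higher and 1 lower of 6 tested (45.6 to 68.8 against 24.7 to 35.8 CPM). Epithelium markers remained detected in every library, at sums of 833 to 3124 CPM in the urethra and 2183 to 5476 CPM in the bladder, with 9 of 16 lower and 2 higher in the urethra. Only 1 of these lists, skeletal muscle, had a marker at 0 throughout a group, 1 gene in the male bladder. The counts of called markers stand beside 38.5% of all tested genes called lower and 36.5% called higher in the urethra.

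Most of the cell cycle genes were lower in the urethra than in the bladder. CPM are counts scaled to the same TMM-adjusted library total, and a gene is called here at an adjusted p under 0.05 by edgeR's quasi-likelihood test over all 18254 genes. Of the 46 genes 37 were called lower and 4 higher, and 5 were not called. Over all tested genes 38.5% were called lower and 36.5% higher. The median log2 fold change of the 46 was −0.54, beside −0.03 for all tested genes. The fall was at least 1.5-fold in 18 genes and at least 2-fold in 4, namely Ccne2, Cdkn2c, Cenpa and E2f8. In bulk tissue, fewer cells of a type and less RNA per cell cannot be told apart, and the part of the cell types that differed between the tissues was not tested.

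**Figure D1:**
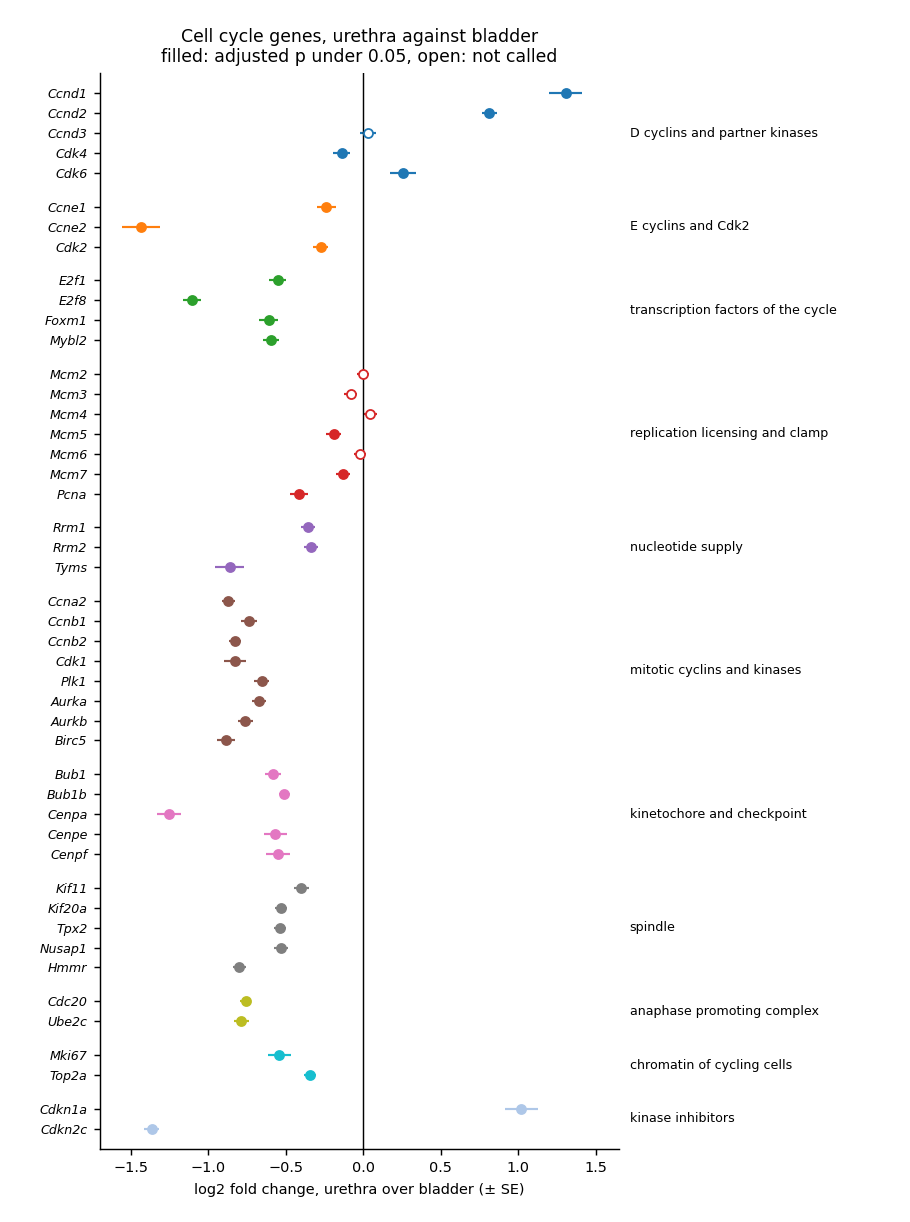
Log2 fold change of each of the 46 genes, urethra over bladder, with its standard error, grouped by role (8 libraries per tissue). Filled points are called at an adjusted p under 0.05 and open points are not. The mitotic roles lie to the left of 0, the MCM genes near 0, and Ccnd1, Ccnd2, Cdk6 and Cdkn1a to the right of 0.

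The direction was shared between the sexes and the litters. In females 34 of the 46 were called lower (33.1% of all genes) and 4 higher (32.6%), and in males 34 were called lower (32.6%) and 3 higher (31.4%). Of the 37 genes called lower, 33 were also called lower in each sex. Each of the 37 was lower in all 8 pairs of urethra and bladder libraries from the same litter and sex. Neither count has a share over all genes beside it, as none was computed. For 30 of the 46, all of them called lower, every urethra library lay below every bladder library, against 20.3% of all tested genes. For 3 of the 46, all of them called higher, every urethra library lay above every bladder library, against 22% of all tested genes. Scaling on library totals alone moved the median of all genes to 0.11 and that of the 46 to −0.41, and left 8 of the 46 called higher, 6 in males. It moved the share of all calls that were higher from 48.7 to 60.8% for the pooled tissues, from 49.6 to 61.1% in females and from 49 to 63.3% in males.

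Of the 3 D cyclins 2 went the other way. All 3 couple growth signals to cycle entry. Ccnd1 and Ccnd2 were higher in the urethra, while Ccnd3 was not called. Ccnd1 (chr7:144929931-144939925, minus strand) had 347, 381, 426 and 376 CPM in the 4 male urethra libraries and 393, 508, 489 and 531 CPM in the female ones, against 159.6, 187, 226 and 137 CPM in male and 130.2, 159.9, 204 and 180.1 CPM in female bladder. Every urethra library was above every bladder library, and the female urethra held the 3 highest values. The log2 fold change was 1.31 ± 0.11 (adjusted p = 1.3e-08). Ccnd2 had 525, 495, 516 and 505 CPM in male and 467, 471, 498 and 519.5 CPM in female urethra, against 272, 330.4, 302 and 257 CPM in male and 272, 293, 257 and 288 CPM in female bladder. The tissues did not overlap for Ccnd2 either, and its log2 fold change was 0.81 ± 0.05 (adjusted p = 2.4e-10). Ccnd3 ran from 293 to 354 CPM in the urethra and from 248 to 323 CPM in the bladder, and its log2 fold change of 0.03 ± 0.05 was within the spread between libraries.

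Within a library the mix of D cyclins was therefore unlike between the tissues. Ccnd1 stood at 0.979 to 1.80 times the CPM of Ccnd3 in urethra libraries and at 0.445 to 0.911 times in bladder libraries. Ccnd2 stood at 1.48 to 1.76 times Ccnd3 in the urethra and at 0.838 to 1.22 times in the bladder. These ratios need no scaling between libraries, and neither overlapped between the tissues.

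The partner kinases differed little. Cdk6, 1 of the 2 kinases that D cyclins activate, had lowest, median and highest values of 52.9, 66.6 and 84.2 CPM in the urethra against 49.4, 54.7 and 70.9 CPM in the bladder. Its log2 fold change was 0.26 ± 0.08 (adjusted p = 0.012), with overlapping tissues. It was called in females (0.40 ± 0.12) and not in males (0.11 ± 0.12), and the interaction was not called. Cdk4, the other kinase, had 384, 423 and 474 CPM in the urethra against 420.4, 462 and 518 CPM in the bladder, and its log2 fold change was −0.14 ± 0.06 (adjusted p = 0.031). The tissues overlapped for Cdk4, yet the urethra library was the lower in 8 of 8 pairs. Its call was lost without any 1 of female bladder replicates 1, 2 and 4, male bladder replicate 1, female urethra replicates 3 and 4, or male urethra replicates 3 and 4 (adjusted p from 0.058 to 0.16). Both calls were lost with epithelium markers as a covariate, at adjusted p = 0.33 for Cdk6 and 0.84 for Cdk4, and without the 2 female urethra libraries low in epithelium (0.056 and 0.18). The call of Cdk4 was also lost with library totals (0.97), DESeq2 (0.077) and no filter on low counts (0.33).

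The 2 genes of cyclin E parted from each other. Cyclin E with Cdk2 drives cells into S phase, and Ccne2 fell far more than Ccne1. Ccne2 (chr4:11191351-11204779, plus strand) had 35.2, 41.5, 32.9 and 38.9 CPM in male and 38.2, 36.7, 32.01 and 28.6 CPM in female urethra, against 117, 102, 73.3 and 95.7 CPM in male and 114, 117, 70.2 and 76.4 CPM in female bladder. The tissues lay well apart, and the female bladder libraries themselves fell into a high and a low pair. The log2 fold change, −1.43 ± 0.12 (adjusted p = 2.5e-08), was the most negative of the 46. Ccne1 had 36.996, 39.8 and 44.3 CPM in the urethra against 40.05, 47.2 and 56.7 CPM in the bladder as lowest, median and highest. Its libraries overlapped between the tissues and its log2 fold change was −0.24 ± 0.06 (adjusted p = 0.002), lost with library totals (0.14) and with the epithelium covariate (0.20). The ratio of Ccne2 to Ccne1 was 0.772 to 1.00 in urethra and 1.57 to 2.48 in bladder libraries. Cdk2, the kinase that cyclin E and cyclin A activate, had 72.5, 78.1 and 82.2 CPM in the urethra against 81.9, 93.6 and 108 CPM in the bladder, a log2 fold change of −0.28 ± 0.05 (adjusted p = 6.7e-05).

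**Figure D2:**
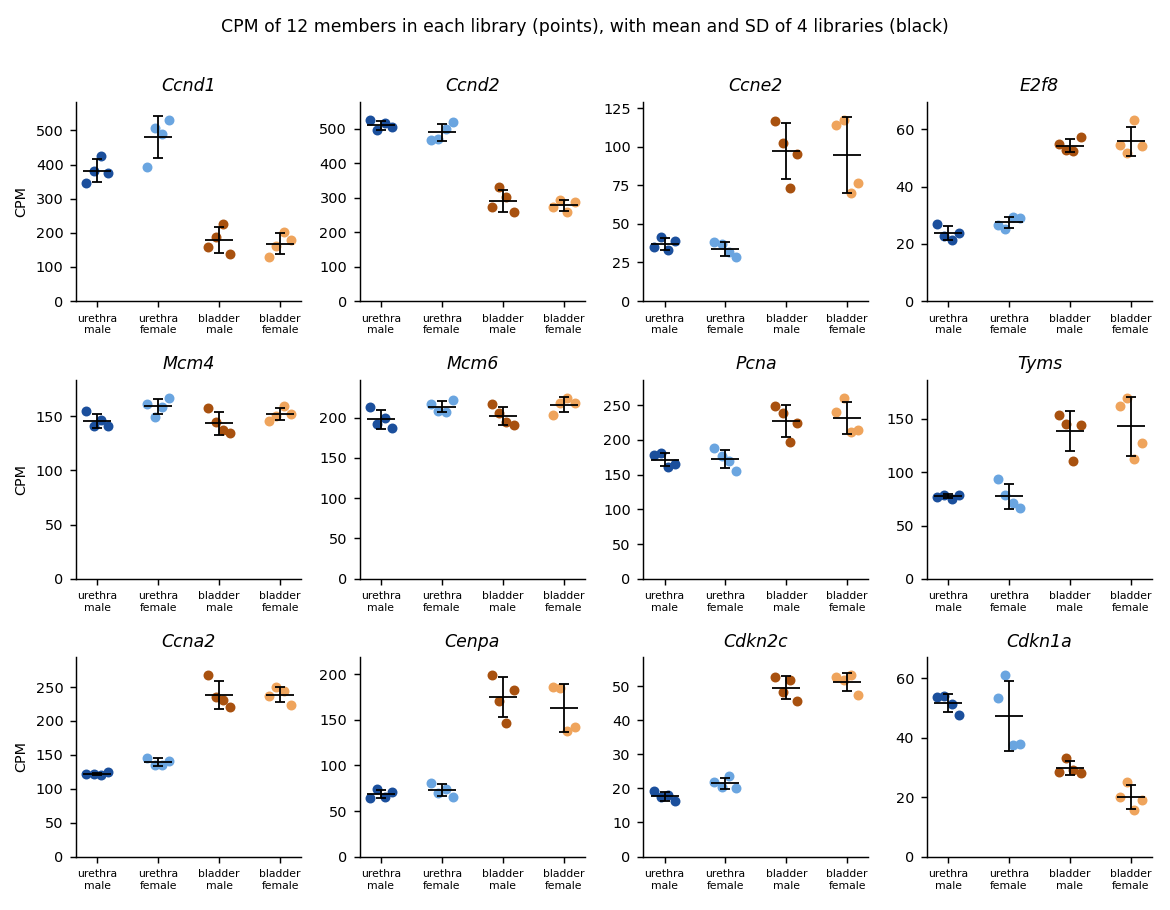
CPM (vertical axis, linear from 0) of 12 of the 46 genes in each of the 16 libraries, with the mean and SD of the 4 libraries of a group in black. Ccnd1, Ccnd2 and Cdkn1a are higher in the urethra, Mcm4 and Mcm6 overlap between the tissues, and the other 7 genes are lower in every urethra library than in any bladder library.

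All 4 transcription factors of the cycle were lower in the urethra. E2f8, an E2F family member that represses E2F targets late in S phase, had 26.97, 22.9, 21.3 and 23.9 CPM in male and 26.7, 25.2, 29.3 and 29.1 CPM in female urethra, against 54.8, 52.7, 52.3 and 57.4 CPM in male and 54.5, 51.7, 63.3 and 54.1 CPM in female bladder. The highest urethra library was far below the lowest bladder library, and the log2 fold change was −1.11 ± 0.06 (adjusted p = 3.1e-11). Foxm1, the forkhead factor of the mitotic programme, had 52.7, 56.9 and 74.5 CPM in the urethra against 82.3, 90.3 and 106 CPM in the bladder (−0.61 ± 0.06 on the log2 scale). Mybl2 (B-Myb), its partner in that programme, had 26.8, 32.001 and 35.01 CPM against 43.1, 47.5 and 52.4 CPM (−0.60 ± 0.05). E2f1, the activating E2F of cycle entry, had 39.5, 42.4 and 51.97 CPM against 56.3, 63.8 and 69.2 CPM (−0.55 ± 0.06). None of the 4 overlapped between the tissues, and the largest of the 4 adjusted p was 1.2e-07. A share of 2.5% of the exon bases of Foxm1 is also annotated to other genes.

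The helicase genes were nearly level between the tissues. Mcm2 to Mcm7 encode the 6 subunits of the ring that is loaded on origins and unwinds DNA. Only Mcm5 and Mcm7 of the 6 were called, both lower, and the median log2 fold change of the 6 was −0.05. Mcm5 had 159, 178 and 201 CPM in the urethra against 183, 197 and 229 CPM in the bladder (−0.19 ± 0.05, adjusted p = 0.0025). Mcm7 had 176, 184 and 208 CPM against 186, 199.7 and 222 CPM (−0.13 ± 0.05, adjusted p = 0.018). Mcm3 had 136, 149.6 and 161 CPM against 144, 157 and 170.2 CPM (−0.08 ± 0.04, adjusted p = 0.082). All 6 overlapped between the tissues. Log2 fold changes of Mcm2 (0.00 ± 0.04), Mcm6 (−0.02 ± 0.04) and Mcm4 (0.05 ± 0.04) were within the spread. With library totals alone the values of Mcm2, Mcm3, Mcm6 and Mcm7 turned above 0 and Mcm2, Mcm4 and Mcm6 were called higher. The call of Mcm5 was lost without a filter on low counts, and those of Mcm5 and Mcm7 both with library totals and with the epithelium covariate. Mcm7 was not called by DESeq2 (adjusted p = 0.050), without a filter (0.36) or without the 2 female urethra libraries low in epithelium (0.092), and 3.89% of its exon bases are shared with microRNA genes. Leaving out any 1 of female bladder replicates 1 to 3 or male bladder replicate 1 also ended the call of Mcm7 (0.051 to 0.12). Mcm3 was called lower with the litter as a block (adjusted p = 0.032) and without male urethra replicate 1 (0.033). Mcm4 was called higher without female bladder replicate 3 (0.047) or male bladder replicate 1 (0.033).

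Pcna differed from the helicase. It encodes the sliding clamp that tethers DNA polymerase and had 179, 181, 161 and 165 CPM in male and 188, 176, 170.1 and 156 CPM in female urethra, against 249, 238, 196 and 225 CPM in male and 240.04, 261, 211 and 214 CPM in female bladder. No urethra library reached the lowest bladder library, and the log2 fold change was −0.41 ± 0.06 (adjusted p = 7.2e-06).

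The nucleotide supply genes fell together. Tyms, thymidylate synthase, had 66.6, 77.7 and 93.8 CPM in the urethra against 111, 145 and 169.96 CPM in the bladder, with a log2 fold change of −0.86 ± 0.09 (adjusted p = 3.6e-07). Rrm1 and Rrm2, the large and small subunits of ribonucleotide reductase, had 209.7, 227 and 255 against 271, 284 and 325 CPM and 95.5, 103 and 109.6 against 114, 132 and 143 CPM. Their log2 fold changes were −0.36 ± 0.05 and −0.34 ± 0.05. The tissues did not overlap for any of the 3. Pcna and Tyms have pseudogene copies in the table, as do Ccnd3, Ccnb1 and Ccnb2, and multimapping reads were not counted, so levels of these 5 genes are uncertain. Copies were looked for only under the gene's own symbol, so copies of the other genes under other symbols were not checked.

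The genes of G2 and mitosis moved in 1 direction. All 22 of them were called lower in the urethra, also in each sex, with log2 fold changes from −1.26 to −0.35 and a median of −0.67. Among the cyclins and kinases, Ccna2 (cyclin A) had 122, 122, 121 and 124 CPM in male and 146, 134, 135 and 141 CPM in female urethra, against 267, 236, 231 and 219.996 CPM in male and 237, 249.6, 244 and 224 CPM in female bladder. The male urethra libraries were the lowest and nearly identical, and no library of 1 tissue fell into the range of the other. Its log2 fold change was −0.87 ± 0.04 (adjusted p = 1.2e-11). Ccnb2, a cyclin B that partners Cdk1 in mitosis, had 49.4, 51.9 and 58.1 CPM in the urethra against 88.8, 94.5 and 97.8 CPM in the bladder (−0.83 ± 0.04, adjusted p = 1.0e-11). Birc5 (survivin) and Aurkb, both of the chromosomal passenger complex, had 50.9, 54.6 and 63.98 against 91.7, 101 and 114 CPM (−0.89 ± 0.06) and 51.6, 57.2 and 67.8 against 92.2, 95.8 and 111 CPM (−0.76 ± 0.05). Cdk1 (−0.83 ± 0.07), Ccnb1 (−0.74 ± 0.05), the centrosome kinase Aurka (−0.67 ± 0.05) and the polo kinase Plk1 (−0.66 ± 0.05) fell by similar amounts.

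At the kinetochore, Cenpa stood apart from the rest. Cenpa encodes the histone H3 variant that marks centromeres. It had 63.9, 74.4, 65.4 and 71.01 CPM in male and 80.9, 70.2, 74.01 and 65.4 CPM in female urethra, against 199, 171, 147 and 183 CPM in male and 186, 185, 138 and 142 CPM in female bladder. Bladder libraries were high and variable, urethra libraries low and close together, and the log2 fold change was −1.26 ± 0.08 (adjusted p = 3.4e-10). Bub1 and Bub1b, of the spindle checkpoint, had 43.8, 50.3 and 58.3 against 70.1, 76.1 and 83.6 CPM (−0.58 ± 0.05) and 85.7, 95.3 and 109 against 129, 134 and 153 CPM (−0.51 ± 0.04). Cenpe, a kinetochore motor, had 43.4, 49.1 and 68.7 against 69.2, 74.7 and 101 CPM (−0.57 ± 0.07) and the corona protein gene Cenpf −0.55 ± 0.08 on the log2 scale. For Cenpf and Mki67 the highest female urethra library reached into the bladder range, and these were the only 2 of the 22 whose tissues overlapped.

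Spindle genes followed the same pattern. Hmmr, a microtubule-binding protein gene, had 45.1, 49.5 and 54.8 CPM in the urethra against 78.8, 84.01 and 93.8 CPM in the bladder (−0.80 ± 0.04, adjusted p = 3.5e-11). Tpx2, the activator of Aurora A, had 99.2, 113 and 126 against 148, 164 and 176 CPM (−0.54 ± 0.04), and the kinesin gene Kif20a had 92.9, 101 and 118 against 143, 151 and 158 CPM (−0.53 ± 0.04). Nusap1 had 72.2, 78.5 and 92.95 against 107, 114 and 126 CPM (−0.53 ± 0.04), and the kinesin gene Kif11 fell least of the 5 (−0.40 ± 0.05). The members of the anaphase-promoting machinery were close to each other. Its activator Cdc20 had 76.9, 80.5 and 91.9 CPM in the urethra against 129, 139.7 and 149 CPM in the bladder (−0.76 ± 0.04), and its ubiquitin-conjugating enzyme Ube2c had 79.9, 84.2 and 101 against 139, 143 and 167 CPM (−0.79 ± 0.05). Of the chromatin genes that mark cycling cells, Mki67 (Ki-67) had 172, 189 and 263 against 254, 291 and 350.4 CPM (−0.54 ± 0.07). Top2a, topoisomerase II alpha, had 289, 319 and 360.4 against 369, 399 and 441 CPM (−0.35 ± 0.04). Top2a thus had the smallest fall of the 22, and 1.35% of its exon bases are shared with another gene.

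Mitotic and helicase genes were next set against each other inside each library, where scaling drops out. The CPM of the 22 mitotic genes summed to 1972, 1916, 1930.4 and 1974 in male and 2244, 2179.5, 2279 and 2323 in female urethra, against 3465, 3169, 3228 and 3139 in male and 3316, 3356, 3388 and 3131 in female bladder. The sum of Mcm2 to Mcm7 ran from 938 to 1107 CPM in the urethra and from 980.4 to 1156 CPM in the bladder. The mitotic sums were thus fully apart and the helicase sums overlapped. The ratio of the sums was 1.87 to 2.103 in male and 2.03 to 2.19 in female urethra, against 3.00 to 3.29 in male and 2.91 to 3.12 in female bladder. No urethra library reached the ratio of any bladder library, and the ratio was lower in the urethra in 8 of 8 pairs. The 2 sums were grouped after the values of single genes were known, so the ratio is a description without a test.

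**Figure D3:**
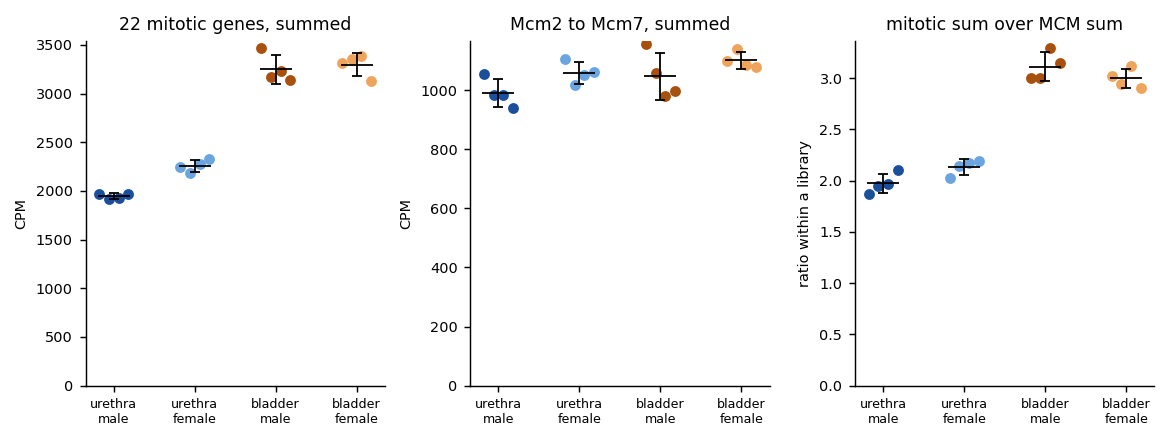
Summed CPM of the 22 mitotic genes, summed CPM of Mcm2 to Mcm7, and the ratio of these sums, in each library (points) with the mean and SD of 4 libraries (black), on linear axes from 0. The ratio averages 1.97 ± 0.10 in male and 2.13 ± 0.07 in female urethra, against 3.11 ± 0.14 in male and 3.00 ± 0.09 in female bladder.

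The promoters of both groups were compared by sequence, because B-Myb and FoxM1 complexes act through a CHR element with CCAAT boxes and E2F acts through its own site. Windows of 300 bases, from 250 before to 50 after the RefSeq start (GRCm38.p6), were given for 37 of the 46 genes. The words searched on both strands were TTTGAA for the CHR, CCAAT for the CCAAT box, and TTTCCCGC, TTTGGCGC, TTTCGCGC and TTTGCCGC for the E2F site. E2F words may overlap each other. Of the 27025 genes with a window 20.2% held the CHR word, 41.1% CCAAT, 7.97% both and 2.6% an E2F word. Of the 18 mitotic genes with a window 13 (72.2%) held both CHR and CCAAT and 1 (5.56%), Cdk1, held an E2F word. Of the 5 helicase genes with a window 4 (80%) held an E2F word and 1 (20%) held the CHR. The CCAAT word did not separate these groups, at 5 of 5 helicase genes (100%) and 16 of 18 mitotic genes (88.9%). Among other genes of the pathway an E2F word was in 14 of 32 replication genes (43.8%) and 6 of 56 mitosis genes (10.7%), and both CHR and CCAAT were in 3 (9.38%) and 29 (51.8%) of them. None of the 3 D cyclin and partner kinase genes with a window held a CHR or E2F word. A match describes letters only and is not a bound site.

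Shown are the 4 called genes with the smallest p whose windows hold both the CHR and CCAAT words, then Mcm6 and Mcm5, which were chosen after their values were seen, for their E2F words. Each runs 5′ to 3′ on the gene's strand from 170 bases before the start through the first 30 transcribed bases, and capitals mark every searched word on either strand. The intervals are chr9:70421525-70421724, chr4:118437314-118437513, chr7:48881567-48881766, chr11:40733408-40733607 and chr1:128359676-128359875 on the minus strand and chr8:75109339-75109538 on the plus strand of GRCm38.p6.
Ccnb2: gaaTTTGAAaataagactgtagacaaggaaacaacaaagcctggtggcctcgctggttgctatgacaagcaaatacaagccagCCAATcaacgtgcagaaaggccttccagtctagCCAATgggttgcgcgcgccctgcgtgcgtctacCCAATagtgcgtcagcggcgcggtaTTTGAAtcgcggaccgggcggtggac
Cdc20: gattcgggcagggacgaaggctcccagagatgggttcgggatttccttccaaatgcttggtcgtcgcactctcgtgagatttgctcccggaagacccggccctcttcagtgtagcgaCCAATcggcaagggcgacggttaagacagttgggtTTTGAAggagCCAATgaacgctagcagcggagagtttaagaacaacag
E2f8: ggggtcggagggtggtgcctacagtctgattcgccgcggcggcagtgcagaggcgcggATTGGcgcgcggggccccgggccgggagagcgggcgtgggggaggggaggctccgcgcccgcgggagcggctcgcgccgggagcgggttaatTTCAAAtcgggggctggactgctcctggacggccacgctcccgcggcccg
Hmmr: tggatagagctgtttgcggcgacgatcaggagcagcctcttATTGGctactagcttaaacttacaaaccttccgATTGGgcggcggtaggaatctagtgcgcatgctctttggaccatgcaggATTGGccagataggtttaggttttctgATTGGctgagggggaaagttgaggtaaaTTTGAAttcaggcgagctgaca
Mcm6: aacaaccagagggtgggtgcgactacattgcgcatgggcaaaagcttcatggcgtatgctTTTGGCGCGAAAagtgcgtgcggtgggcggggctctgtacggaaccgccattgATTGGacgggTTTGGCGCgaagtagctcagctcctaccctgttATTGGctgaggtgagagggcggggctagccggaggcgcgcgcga
Mcm5: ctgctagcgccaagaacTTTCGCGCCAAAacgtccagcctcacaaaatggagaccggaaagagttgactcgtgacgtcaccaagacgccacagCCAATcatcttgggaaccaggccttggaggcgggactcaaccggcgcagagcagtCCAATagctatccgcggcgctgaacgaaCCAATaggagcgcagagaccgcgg
The CHR word begins at base −18 in Cdc20, −20 in E2f8, 5 in Ccnb2 and 9 in Hmmr, counted from the start as base 1, so it lies close to the start in these 4, and Ccnb2 holds another at −167. CCAAT words begin at −53 and −8 in Cdc20 and at −87, −54 and −21 in Ccnb2. The E2F words of Mcm6 begin at −110, −106 and −47 and those of Mcm5 at −153 and −149. The first 4 genes had log2 fold changes of −0.83, −0.76, −1.11 and −0.80, urethra over bladder. The values of Mcm6 and Mcm5 were −0.02 and −0.19, the value of Mcm6 turning above 0 under other scalings. This contrast came with the choice of genes. Birc5 (−0.89) and Tyms (−0.86) held none of the words in their windows, and Mcm2 (−0.003) held both CHR and CCAAT. Whether the words go with the fold changes was not tested.

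The 2 kinase inhibitors moved in opposite directions. Cdkn1a (p21, chr17:29090976-29100727, plus strand), a broad CDK inhibitor and p53 target, had 53.6, 53.9, 51.4 and 47.6 CPM in male and 53.4, 60.9, 37.4 and 37.7 CPM in female urethra, against 28.5, 33.04, 29.2 and 28.1 CPM in male and 19.97, 25.2, 15.8 and 18.95 CPM in female bladder. Every urethra library was above every bladder library, and the female urethra split into a high and a low pair. The log2 fold change was 1.02 ± 0.11 (adjusted p = 2.3e-07). Cdkn2c (p18, chr4:109660876-109667189, minus strand), which blocks Cdk4 and Cdk6, had 19.3, 17.4, 18.1 and 16.2 CPM in male and 21.8, 20.5, 23.6 and 20.2 CPM in female urethra, against 52.7, 48.3, 51.7 and 45.6 CPM in male and 52.7, 51.7, 53.1 and 47.5 CPM in female bladder. Here the bladder was uniformly high, and the log2 fold change of −1.37 ± 0.05 had the smallest adjusted p of the 46 (8.1e-13). Within libraries Cdkn1a stood at 1.58 to 3.10 times the CPM of Cdkn2c in the urethra and at 0.297 to 0.684 times in the bladder.

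Levels per length place these genes against each other. On the FPKM scale, CPM per kilobase of annotated exon, Cdk4 was the most abundant, at 131 ± 8.38 FPKM in the urethra and 144 ± 12.003 FPKM in the bladder (SD, n = 8 each). Ccnd1 came second in the urethra at 91.6 ± 14.7 FPKM, against 36.7 ± 6.93 FPKM in the bladder. Pcna followed at 71.7 ± 4.51 FPKM in the urethra, against 95.5 FPKM in the bladder, where it was second. The lowest levels in the urethra were those of E2f8 (4.71 ± 0.528 against 10.1 ± 0.694 FPKM in the bladder) and Cdk6 (4.77 ± 0.691 against 3.997 ± 0.488 FPKM). The spread between libraries of a group was taken as the coefficient of variation of CPM, in its root mean square over the groups. It was widest for Ccne2 (18.1%), Cdkn1a (16.5%) and Ccnd1 (16.1%) and narrowest for Tpx2 (4.28%) and Cdc20 (4.4%).

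Other genes of the pathway, 161 in 7 lists, were tested alongside. Over all lists 127 were called lower and 19 higher in the urethra, beside 38.5% and 36.5% of all genes. The median log2 fold change was −0.46. Of 65 other mitosis genes 62 were lower and 2 higher. Ckap2, a spindle protein gene, had 47.1 ± 4.24 CPM in urethra and 127 ± 6.26 CPM in bladder libraries (mean ± SD, 8 per tissue), a log2 fold change of −1.44 ± 0.04. The condensin gene Smc4 (−0.87 ± 0.04) and the centrosomal gene Tacc3 (−0.74 ± 0.03) were lower as well, and the higher ones were the tubulin regulator Stmn1 (0.23 ± 0.04) and the tubulin gene Tubb5 (0.17 ± 0.03). Of 41 other replication genes 36 were lower and 1 higher, with a median of −0.27. Rpa1, of the single-strand binding complex, had 149.6 ± 5.93 CPM in urethra and 303 ± 29.6 CPM in the bladder (−1.02 ± 0.06). Thymidine kinase Tk1 (−1.20 ± 0.07) and the helicase cofactor Gins2 (−1.23 ± 0.10) fell as well, and Timeless was the 1 called higher (0.09 ± 0.04, adjusted p = 0.049).

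The brakes and regulators were mixed, where 38.5% of all genes were called lower and 36.5% higher. Of 9 other inhibitors and pocket proteins 6 were lower, among them the phosphatase gene Cdkn3 (6.101 ± 0.839 CPM in urethra and 19.9 ± 1.49 CPM in the bladder, −1.71 ± 0.08), Cdkn1b (p27, −0.63 ± 0.06) and the p107 gene Rbl1 (−0.31 ± 0.04). The 2 higher were Rb1, the retinoblastoma gene (0.62 ± 0.06), and Cdkn1c (p57, 0.22 ± 0.08). Of 14 other E2F and DREAM genes 5 were lower and 5 higher, near the shares over all genes. Mybl1 (−1.35 ± 0.08), Tfdp1 (−0.39 ± 0.04) and E2f7 (−0.39 ± 0.05) were lower, and Myb (2.21 ± 0.18), E2f3 (0.40 ± 0.05) and E2f2 (0.45 ± 0.05) were higher. Of 9 checkpoint kinases and phosphatases 5 were lower, among them Dbf4 (−0.49 ± 0.05), Pkmyt1 (−0.51 ± 0.05) and Chek2 (−0.58 ± 0.07), and Atm (0.29 ± 0.07) and Cdc25a (0.12 ± 0.04) were higher.

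Genes that share a regulator or a state with Cdkn1a did not all move with it. Of 15 p53 target genes 8 were lower and 5 higher in the urethra, beside 38.5% and 36.5% of all genes. Lower were Ccng1 (−0.70 ± 0.04), Btg2 (−0.58 ± 0.06) and Mdm2 (−0.26 ± 0.04), the ubiquitin ligase of p53, and higher were the cell death gene Bbc3 (1.35 ± 0.07), Plk2 (0.87 ± 0.05) and Trp53inp1 (1.04 ± 0.07). Of 10 quiescence genes 7 were lower, including Klf4 (−1.53 ± 0.07), Gas6 (−1.71 ± 0.08) and Cdkn1b, which is in both lists. Btg1 (243 ± 9.77 CPM in urethra and 111 ± 10.4 CPM in the bladder, 1.13 ± 0.04) and Ccng2 (0.81 ± 0.06) were the 2 higher.

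Between the sexes the differences were small, and calls were made in the urethra. In the male urethra 7 of the 46 were called lower than in the female urethra and 0 higher, beside 2.42% and 3.97% of all genes. Of the 7, 6 act in mitosis and the other is the inhibitor Cdkn2c. The median log2 fold change of the 46 was −0.16, beside −0.01 for all genes, and 39 of the 46 were below 0. At an unadjusted p under 0.05 there were 25, and 26 were lower in the male in all 4 litters. The share over all genes was not computed for either count, nor for the like counts below. In 17 genes every male library lay below every female library, as in 6.33% of all genes. With library totals alone 3 were called, and the share of all calls that were higher in males moved from 62.1 to 71.1%.

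Bub1b had 91.3, 85.7, 89.9 and 87.03 CPM in the male urethra, against 105, 99.4, 106 and 109 CPM in the female urethra. Each male library was below each female library, and the log2 fold change was −0.25 ± 0.05 (adjusted p = 0.009). Tpx2 had 108, 99.2, 102 and 105 CPM in males against 118, 120.3, 123 and 126 CPM in females (−0.24 ± 0.05, adjusted p = 0.0092). Top2a had 303, 289, 291 and 291 CPM in males against 335, 341, 360.4 and 348 CPM in females (−0.24 ± 0.06, adjusted p = 0.017). Cdkn2c had −0.28 ± 0.07 (adjusted p = 0.027), again with male libraries all below female ones. Kif20a (−0.20 ± 0.05, adjusted p = 0.037), Cenpf (−0.38 ± 0.11, adjusted p = 0.049) and Nusap1 (−0.21 ± 0.06, adjusted p = 0.0496) were nearer the threshold. Cenpf had 85.2, 70.8, 82.7 and 86.9 CPM in males against 81.4, 108, 107 and 127 CPM in females, and it overlapped through the lowest female library.

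Epithelium left on the mesenchyme differed between these libraries. The mean log2 CPM of the 16 epithelium markers was 6.98, 6.62, 6.77 and 7.07 in the male urethra, against 6.79, 6.698, 5.902 and 5.197 in the female urethra, so 2 female libraries were lower than any male one by a wide margin. Mesothelium sums were 394 to 489 CPM in males against 208.8 to 388 CPM in females, and 1 of 7 of its markers and 2 of 6 tested cartilage and bone markers were called higher in the male urethra. Without these 2 female libraries, and likewise with the epithelium mean as a covariate, none of the 46 was called, with 15 and 17 at an unadjusted p under 0.05. Over all genes these settings called 106 and 178 lower in males, against 442 with every library and no covariate, so calls were lost among other genes as well. The log2 fold change of Bub1b was then −0.21 and −0.18, and that of Tpx2 −0.20 and −0.19. The mitotic sums of the 2 other female libraries were 2244 and 2180 CPM, and the highest male sum was 1974 CPM. The part of epithelium in the sex differences was not tested. Under these 2 settings 35 and 33 of the 46 were called lower in the urethra than in the bladder. Over all genes the counts were 6681 and 5596, against 7019 with every library and no covariate.

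The number of calls in the urethra also moved with the fit. DESeq2 and the fit with the litter as a block each called 14 of the 46 lower in males, limma voom 6, and the fit without a filter on low counts 0. Over all genes these fits called 690, 644, 540 and 302 lower in males, in that order, against 442 in the edgeR fit. Leaving out 1 library at a time gave between 2 and 9 of the 46, beside 227 to 794 of all genes, with Bub1b and Tpx2 called each time. Among the other genes of the pathway 15 of 65 mitosis genes were called lower in the male urethra, beside 2.42% of all genes. They included the cyclin gene Ccnf (−0.23 ± 0.05), the condensin gene Ncapg (−0.22 ± 0.05) and the shugoshin gene Sgo2a (−0.34 ± 0.08). Of 41 replication genes the origin factor gene Mcm10 (−0.26 ± 0.07) and the DNA methyltransferase gene Dnmt1 (−0.23 ± 0.06) were lower, as was E2f2 (−0.31 ± 0.07). Zmat3 was lower (−0.36 ± 0.09) and Sesn1 higher (0.23 ± 0.06) among p53 targets, and Gas6 was higher (0.92 ± 0.12).

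**Figure D4:**
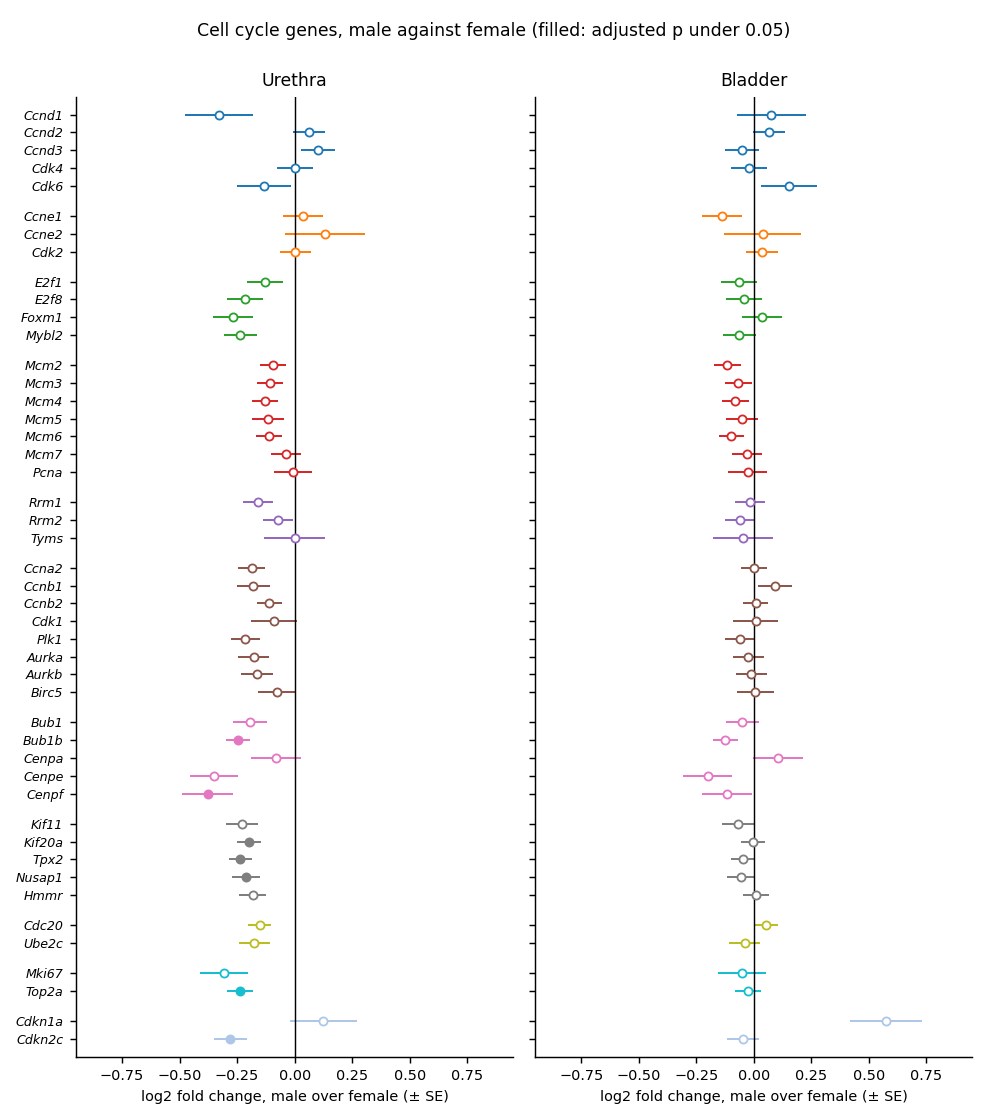
Log2 fold change, male over female, with its standard error, of each of the 46 genes in the urethra (left) and the bladder (right), 4 libraries per group. In the urethra 39 of the 46 lie below 0 and 7 are filled, called at an adjusted p under 0.05, and in the bladder none is filled.

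In the bladder edgeR called 0 of the 46 lower (0.334% of all genes) and 0 higher (0.247%) in males than in females, with 2, Bub1b and Cdkn1a, at an unadjusted p under 0.05. DESeq2 called 1 higher and 0 lower, and limma voom called 0. The median log2 fold change was −0.03, and 3 of the 46 were lower in males in all 4 litters. Single bladder libraries moved these values. Without male bladder replicate 1 the median was −0.08 and 7 genes were at an unadjusted p under 0.05, and without female bladder replicate 4 the median was −0.07 with 1 such gene. The median was −0.02 without female bladder replicate 2 or male bladder replicate 4, with 3 and 1 such genes. Without female bladder replicate 1 there were 4 such genes, and with the litter as a block 5. Cdkn1a had 28.5, 33.04, 29.2 and 28.1 CPM in the male bladder, against 19.97, 25.2, 15.8 and 18.95 CPM in the female bladder. Every male library was above every female library, and the log2 fold change was 0.57 ± 0.16 (adjusted p = 0.099). It was the gene that DESeq2 called (adjusted p = 0.020), and it passed with the litter as a block as well (0.028). Epithelium markers averaged 7.41, 7.67, 7.75 and 7.64 on the log2 CPM scale in the male bladder, against 7.32, 7.396, 6.46 and 6.85 in the female bladder, and the lowest of these 8 libraries also had the least Cdkn1a. In the female urethra the 2 libraries with the least epithelium likewise had the least Cdkn1a. With the epithelium covariate Cdkn1a was not called in the bladder. With library totals alone the share of all calls in the bladder that were higher in males moved from 42.5 to 53.3%.

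The interaction of tissue and sex asked whether the tissues differed by different amounts in males and females. EdgeR called 0 of the 46, beside 0.668% of all genes, with 9 at an unadjusted p under 0.05, and DESeq2 and limma voom called 0 as well. That count of 9 moved when single bladder libraries were left out. It was 1 without male bladder replicate 1 or female bladder replicate 4, 2 without male bladder replicate 3 or female bladder replicate 1, and 3 without female bladder replicate 2 or without the 2 female urethra libraries low in epithelium. The count was 9 without male bladder replicate 2, 10 without male bladder replicate 4 and 12 without female bladder replicate 3. With the litter as a block it was 14. The median interaction of the 46 was −0.15, beside −0.01 for all genes, and 39 of the 46 were below 0. Both medians moved as well. Without male bladder replicate 1 or female bladder replicate 4 that of the 46 was −0.08 or −0.09, and that of all genes 0.02. Cdc20, named after its values were seen, had the smallest p, with a log2 fold change of −0.86 ± 0.05 in males and −0.66 ± 0.05 in females and an interaction of −0.21 ± 0.07 (adjusted p = 0.35). A larger fall in males than in females is therefore not shown for any single gene of the 46.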

How the data were processed

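The authors deposited counts of read pairs per gene, made per the file headers with featureCounts at strand setting 2, with no option set to count multimapping reads or reads over more than 1 gene. Per the submitters' processing notes, reads were aligned to GRCm38 with HISAT2 2.1.0 and counted with Subread 1.6.3, and a second table holds signal, the authors' counts divided by DESeq2 size factors, used here only to check those factors. Libraries came from 250 ng of total RNA and 100 bp paired reads, per the labels' protocols. Library totals bound the precision. The p-values measure the spread between libraries within a group, each from a different litter, and treat libraries of the same litter as independent.

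Counts were analysed in R 4.3.3 with edgeR 4.0.16 (TMM scaling, filterByExpr, robust quasi-likelihood fit of the 4 groups, Benjamini-Hochberg over 18254 genes, threshold 0.05). DESeq2 1.42.0 and limma 3.58.1 were alternatives, and the figures come from Python 3.11.15 (pandas 2.3.3, matplotlib 3.10.9). The code was tested on simulated data. The SE is the size of the log2 fold change over the square root of F, an approximation. CPM use the TMM-scaled totals of tested genes.

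The replicate number is the litter per the labels. Deviations from group means of bladder and urethra from 1 litter and sex correlated at 0.092 to 0.409 with a median of 0.194, above 0.1 in 7 of 8 pairs, while across litters the median was −0.065. For the sexes of 1 tissue, the pairs behind the litter block in the sex comparisons, same-litter values ran from −0.0475 to 0.265 with a median of 0.123, above 0.1 in only 4 of 8 pairs, against a median of −0.0378 across litters. The pairing is taken from the labels. The fit leaves the litter out, with block fits as alternatives. No 2 libraries of a group were copies: chi-squared per degree of freedom was 4.55 to 34 over 24 pairs.

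The members and lists were chosen with earlier results of these data known, among them that proliferation genes were lower in the urethra, so these counts are not independent support. All 46 members are accounted for. Those given by library or by range are the 4 with the smallest p per role and those called against their role, sex results are the called ones, and each pathway list gives up to 3 called genes per direction with the smallest p. Ccnd3, Cdkn1a in the bladder and the 2 helicase promoters were named after their values were seen.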

Additional observations from a re-analysis of the deposited data

Results flagged for a closer look

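In 9 of the 184 sets of 4 libraries (46 genes in 4 groups) 1 library stood apart from the other 3 by Dixon's 95% criterion for 4 values, where chance alone flags about 1 set in 20. In male bladder replicate 1 this was so for 5 genes, all high: Ccnb1 at 206 CPM (others 174.3 to 178), Aurkb at 111 CPM (93 to 94.3), Bub1b at 138 CPM (128.66 to 129.96), Cdc20 at 149 CPM (139.6 to 140.2) and Ube2c at 161 CPM (142.5 to 143.6). The same library was the highest of its group in 34 of the 46 genes and in 18 of the 22 mitotic ones. Male urethra replicate 1, from the same litter, stood apart for Top2a at 303 CPM (others 289 to 291). Plk1 in female bladder replicate 2 was 110.0 CPM (others 97.5 to 98.6), Hmmr in female bladder replicate 3 was 92.4 CPM (83.6 to 84.1), and Cenpe in male bladder replicate 3 was 82.1 CPM (69.2 to 69.8). Without male bladder replicate 1 4 of the 46 were called lower in the male urethra, against 7 with every library. Over all genes 371 were called lower without it, against 442 with every library. The drop among the 46 was not particular to that library. The count was 4 without male bladder replicate 3 or female bladder replicate 4, and 3 without female bladder replicate 1 or 2. It was 5 without male bladder replicate 2 or 4, and 6 without female bladder replicate 3.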

How the results depend on the processing

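The counts of genes lower in the urethra ran from 33 to 38 over the alternatives run (31 to 37 in females, 32 to 37 in males), and the counts of 0 for the interaction and for genes higher in the male urethra held in each. With library totals in place of TMM, 8 genes were called higher in the urethra (6 in males). In that setting Mcm2 (0.13), Mcm3 (0.0542), Mcm6 (0.11) and Mcm7 (0.00542) reversed on the log2 scale. Mcm2 also reversed with DESeq2 size factors (0.0156), DESeq2 (0.0269) and no filter (0.0683), and Mcm6 with DESeq2 (0.00711) and no filter (0.0482). When single libraries were left out, the values of Mcm2 ran from −0.0189 to 0.049 and those of Mcm6 from −0.0395 to 0.0247. Mcm4 reversed with the epithelium covariate (−0.0172). Genes lower in the male urethra numbered 3 with library totals, 14 with DESeq2, 0 without a filter, 3 when only the 8 urethra libraries were fitted, 0 without 2 female urethra libraries, 0 with the epithelium covariate, and 2 to 9 with single libraries left out (4 or fewer without any 1 of male urethra replicates 1 to 4, female urethra replicates 3 and 4, male bladder replicates 1 and 3, or female bladder replicates 1, 2 and 4). With the litter as a replicate block, which the paired litters allow, 14 were lower in the male urethra and 38 in the urethra against the bladder, and blocks by litter and sex also gave 38. Over all genes the number lower in the male urethra was 442 in the edgeR fit used here. It was 335 with library totals, 690 with DESeq2, 302 without a filter and 475 when only the 8 urethra libraries were fitted. Without the 2 female urethra libraries it was 106, with the epithelium covariate 178 and with the litter as a block 644. In the bladder 1 of the 46 was higher in males with DESeq2, with the litter as a block, without female bladder replicate 2 and without the 2 female urethra libraries, and 0 in the other settings. Of single-gene values 1286 kept their direction and side of the threshold, 112 kept their direction and lost their call, 7 kept it and gained one, and 26 reversed. Among those 26, Mcm7 lost its call and Mcm2 and Mcm6 gained one with library totals. Both settings on epithelium were added after the data were seen. The cause of these changes was not tested. At 18577097 counts in the smallest library, depth did not keep any of the 46 from the test.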
